A study of Mus musculus with 2 samples.

Results

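The genes described here are 8 mouse miRNA genes that are known as miRNAs of mesenchymal cells, that is of smooth muscle, fibroblasts, liver stellate cells and cartilage. They were chosen by name, with no threshold on their counts, out of 1973 miRNA genes in the deposited tables. They are Mir143, Mir145a, Mir145b, Mir199a-1, Mir199a-2, Mir199b, Mir214 and Mir140, which lie at 6 loci on 5 chromosomes. The tissue was liver of B6NCrl mouse embryos at embryonic day 15.5, with both sexes pooled, and the labels name no treatment. There was 1 group of 2 libraries, numbered as biological replicates 1 and 2, from pools of 78 and 62 embryos. The spread between libraries is thus that of pools and of library making and not of single embryos. The labels describe whole liver, not sorted cells, so the counts do not show which cells made a miRNA, and fewer cells of a type cannot be told apart from less RNA per cell.

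A miRNA gene is transcribed as a long precursor, cut in the nucleus to a hairpin and in the cytoplasm to mature RNAs from its arms, named 5p and 3p. The mature RNA pairs with messenger RNAs mainly through its seed, bases 2 to 8, and lowers their translation and stability. miR-143 and miR-145 are made from a common precursor and promote the contractile state of smooth muscle. miR-199a and miR-214 are made from Dnm3os, a long noncoding RNA of mesenchyme, and both have been linked to stellate cells and fibrosis. miR-140 is best known from cartilage and is encoded within Wwp2, a ubiquitin ligase gene.

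The authors' tables list reads that map to several places in a row of their own, so reads that match several miRNA genes alike may be missing from the gene counts. Sequences were found for 5 of the 8 genes, in RefSeq on GRCm38.p6. The listed mature RNAs are shown with the seed in capitals, because they show which of the genes share a mature RNA.
miR-199a-5p of Mir199a-1 and Mir199a-2: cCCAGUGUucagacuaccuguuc
miR-199a-3p of Mir199a-1 and Mir199a-2, and miR-199b-3p of Mir199b: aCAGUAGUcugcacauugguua
miR-214-5p of Mir214: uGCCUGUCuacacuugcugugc
miR-214-3p of Mir214: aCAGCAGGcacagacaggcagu
miR-140-3p of Mir140: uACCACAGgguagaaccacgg

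The miR-199 genes form 1 seed family on the 3p arm, with the same 22 bases at 3 genes, and Mir199a-1 and Mir199a-2 also share the 23 bases of miR-199a-5p. The mature RNAs of Mir214 and Mir140 are each listed for 1 gene. The seed of miR-214-3p is also that of miR-761, whose gene Mir761 had 0 counts in both libraries. The seed of miR-140-3p is also that of miR-497b, whose gene Mir497b had 2 counts in replicate 1 and 0 in replicate 2. Mir761 and Mir497b were looked up for their seeds. miR-199b-5p and miR-140-5p are named only.

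The 3 miR-199 hairpins are shown with miR-199a-5p and the shared 3p sequence in capitals, to show how far the genes agree outside the mature RNAs.
Mir199a-1, chr9:21496495-21496564, minus strand: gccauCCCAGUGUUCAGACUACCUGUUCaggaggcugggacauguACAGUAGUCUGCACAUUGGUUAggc
Mir199a-2, chr1:162217814-162217923, plus strand: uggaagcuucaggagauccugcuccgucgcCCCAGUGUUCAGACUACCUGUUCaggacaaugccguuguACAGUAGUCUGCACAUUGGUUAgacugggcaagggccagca
Mir199b, chr2:32318460-32318569, plus strand: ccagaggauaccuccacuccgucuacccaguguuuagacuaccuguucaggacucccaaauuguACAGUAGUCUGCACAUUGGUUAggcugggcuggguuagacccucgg

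In the 5p arm, Mir199a-1 and Mir199a-2 were identical over 27 bases, longer than the mature RNA itself. In the 3p arm they were identical over 26 bases, Mir199a-1 and Mir199b over 28, and Mir199a-2 and Mir199b over 27. The 5p arm of Mir199b had no such copy. Bases 26 to 48 of its hairpin lined up with miR-199a-5p with 1 difference, C10U, with positions counted from 1 at the 5′ end of miR-199a-5p. The longest 5p run that Mir199b shared with the other two genes was 18 bases, with Mir199a-2, and 17 with Mir199a-1.

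**Figure D1:**
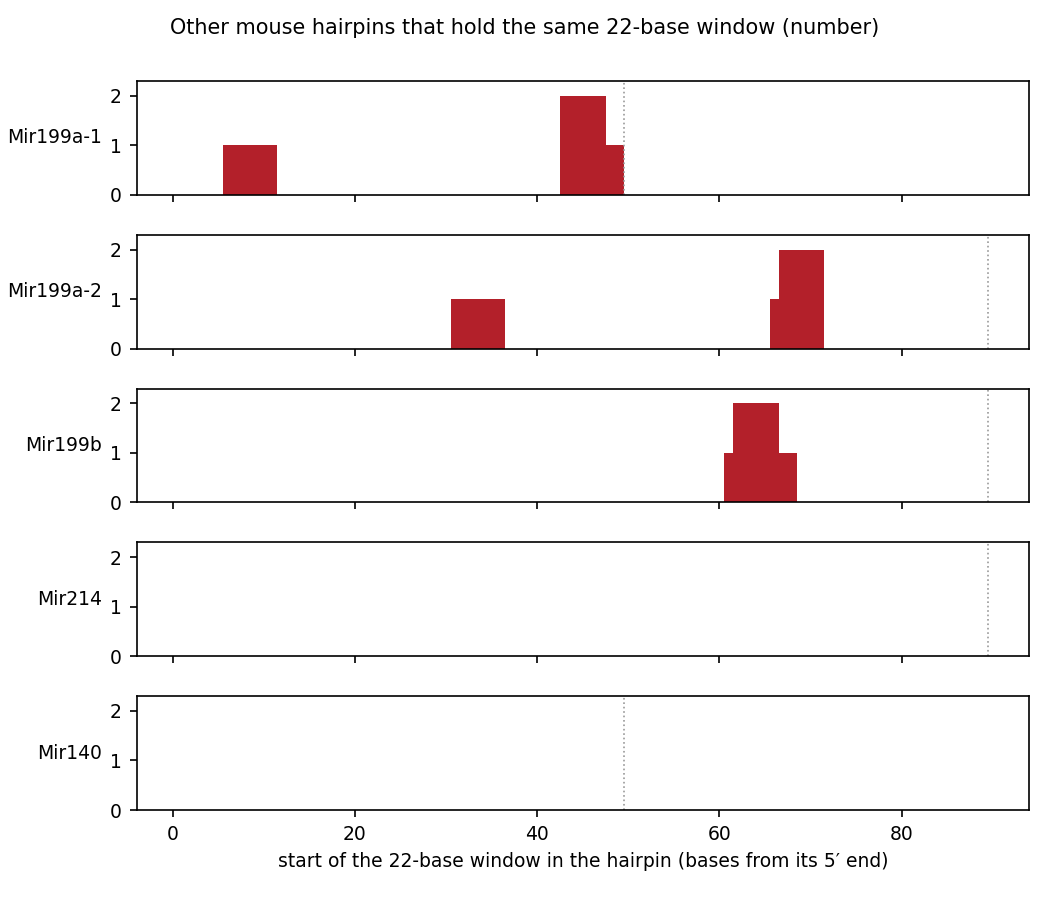
The x axis gives the start of each 22-base window along a hairpin and the y axis the number of other mouse hairpins in the RefSeq table that hold the same window; the dotted line marks the last window. Mir199a-1 and Mir199a-2 have shared windows in both arms, Mir199b in the 3p arm alone, and Mir214 and Mir140 have none.

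Of 22-base windows, 13 of 49 in Mir199a-1, 12 of 89 in Mir199a-2 and 8 of 89 in Mir199b lay in another hairpin, against 0 of 89 in Mir214 and 0 of 49 in Mir140. The shared windows lie over the mature RNAs. For Mir199a-1 and Mir199a-2, a read of exactly a listed mature sequence matches at least 2 hairpins. Which reads their counts hold was not tested. The minimum used here to call a gene detected was 10 counts in each of the libraries. Over the tables, of 34 genes whose listed mature RNAs are all listed for another gene too, 4 (11.8%) were detected. The 34 include the miR-199 genes themselves, and Mir199a-2 and Mir199b are among the 4. Mir199b is in this class because miR-199b-5p is not listed. Of 829 genes that share none, 276 (33.3%) were detected, and of 53 that share some but not all, 37 (69.8%) were. The classes were not matched in any other way, so no effect of sharing can be read from these shares. The search covered hairpins in the RefSeq table and not the whole genome.

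Together the 8 genes held 2.14% of the 5529166 sense counts in replicate 1 (2.13 to 2.15, exact 95% interval) and 2.06% of the 3169882 in replicate 2 (2.04 to 2.07), a mean of 2.10% ± 0.0569 (SD, n = 2). Sense counts are reads on the gene's own strand, and intervals cover the counting error of reads only. Amplified reads are not independent molecules, so the intervals may be too narrow. Counts were strongly uneven among the genes. Mir143 alone made up 77.1% of the counts of the 8 genes in replicate 1 and 71.9% in replicate 2, and Mir140 made up 17.4% and 21.9%. Of the 8, 6 were detected, Mir199a-1 had a few counts in each library, and Mir145b had none. Levels are given in CPM, counts per 1000000 sense miRNA counts of a library. The listed mature RNAs are 21 to 23 bases long, so levels were not divided by length.

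The liver label was checked by the hepatocyte miRNA gene Mir122, at 175539 ± 9614 CPM (SD, n = 2). At 44199 ± 867 CPM, the endothelial Mir126a was above each of the 8 genes. The libraries differed 1.74 times in depth, and 645 and 605 genes had a sense count in replicates 1 and 2. The skeletal and heart muscle list, another possible source of muscle-like signal, held 0.172% of counts in replicate 1 and 0.289% in replicate 2, mostly from Mir206 at 1430 and 2628 CPM. The tables hold 9 of its members, of which 5 were detected. Mir1a-1 and Mir133a-1 had 1 count each over both libraries, and Mir133a-2 had 0. Each of these has a second gene known to make the same main mature RNA, so their reads too may be missing from the gene counts, and the share of the list may be too low. Its tested genes went both ways between the libraries, 1 higher and 2 lower in replicate 1 of 6 tested. Of all genes tested, 18.9% were higher and 19.7% lower. The median log2 ratio of replicate 1 over replicate 2 was 0.30 for the list, against 0.02 for all genes tested. Mir206 was lower in replicate 1 (log2 ratio -0.86, exact binomial test, adjusted p = 3.21e-313) and Mir208b higher (0.45, exact adjusted p = 0.000966). The part of this list in the values below was not tested.

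Mir143 was the most abundant of the 8 genes. It had 91088 sense counts in replicate 1 and 46884 in replicate 2, which came to 16474 CPM (exact 95% interval 16368 to 16581) and 14790 CPM (14658 to 14924). With a mean of 15632 ± 1191 CPM (SD, n = 2) it ranked 18 of all miRNA genes by sense counts assigned to a gene, the only 1 of the 8 among the 20 highest on that measure. The genes next above and below it, Mir99a at 15698 ± 1034 CPM and Mir93 at 15527 ± 447 CPM, had ranges that overlapped its own, so its place among them is not settled. The gene (ENSMUSG00000065445.2) lies on the minus strand of chromosome 18 at 61649196 to 61649258, in no annotated exon or intron, 366 bases downstream of the end of Carmn, a long noncoding RNA of the same strand known from heart and smooth muscle.

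Mir145a (ENSMUSG00000065592.1, chromosome 18 at 61647825 to 61647894) lies 1301 bases further downstream on the same strand. It had 1343 counts in replicate 1 and 602 in replicate 2, or 243 CPM and 190 CPM, with a mean of 216 ± 37.5 CPM (SD, n = 2) and rank 153. The pair differed widely in level although a common precursor is known for both. The count of Mir143 was 67.8 times that of Mir145a in replicate 1 (64.3 to 71.6, exact 95% interval) and 77.9 times in replicate 2 (71.9 to 84.5). Detected miRNA genes of 1 strand with at most 10 kb between them formed 113 adjacent pairs. The median pair was 8.17-fold apart in mean CPM, and 15 pairs were further apart than this one. The nearest genes to Mir145a in level were Mir24-2 at 217 ± 4.09 CPM and Mir328 at 216 ± 7.04 CPM.

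Mir145b (ENSMUSG00000098366.1) is a separate gene on the same chromosome, at 69022199 to 69022273, with no annotated host. It had 0 sense counts in both libraries. A count of 0 still permits 3 reads per library, which is 0.543 CPM at the depth of replicate 1 and 0.946 CPM at that of replicate 2. Set against that limit per library, the Mir145a count was at least 447.6-fold higher in replicate 1 and at least 200.6-fold higher in replicate 2. These limits are for reads that map to the gene alone, and whether reads of Mir145b were lost as mapping to several places was not tested.

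**Figure D2:**
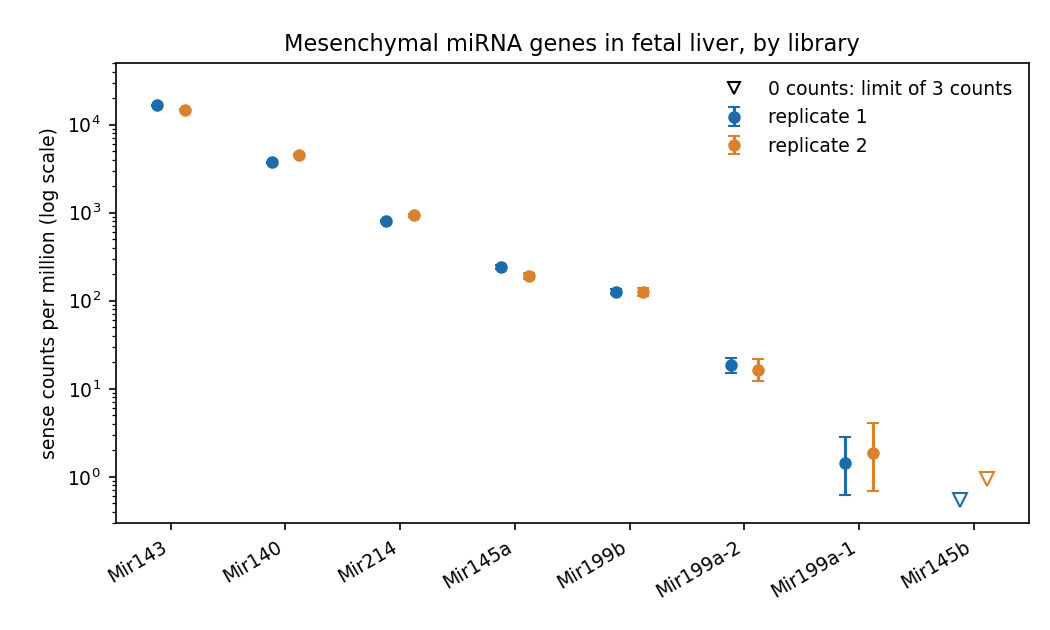
Sense CPM on a log axis for the 8 genes in order of mean level, with 1 point per library and bars for the exact 95% interval of counting error; open triangles mark the limit that 0 counts allow. Mir143 lies at 16474 and 14790 CPM in replicates 1 and 2 and Mir199a-1 at 1.45 and 1.89 CPM, and for each of the first 7 genes both points lie above both points of the next.

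Mir140 (ENSMUSG00000065439.1) was second. It had 20519 counts in replicate 1 and 14297 in replicate 2, or 3711 and 4510 CPM, with a mean of 4111 ± 565 CPM (SD, n = 2) and rank 52. It lies on the plus strand of chromosome 8 at 107551244 to 107551313 within Wwp2. The only type of Wwp2 transcript with an exon there is annotated as retained intron. Mir434 at 4173 ± 148 CPM and Mir130b at 3826 ± 154 CPM were next to it in level, again with overlapping ranges. Mir455, the other gene of the cartilage list and encoded within the collagen gene Col27a1, had 642 CPM in replicate 1 and 793 CPM in replicate 2. Both genes of this list were lower in replicate 1, against 19.7% of all genes tested by the exact binomial test. Both were abundant, and 61.0% of the 187 genes that reached 100 CPM on average differed in 1 direction or the other. The list holds only 2 genes, and Mir455 is also counted in the mesenchyme list below. Whether cartilage cells differed between the pools was not tested.

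Mir214 (ENSMUSG00000065516.1, plus strand of chromosome 1 at 162223368 to 162223477) had 4412 and 2959 counts in replicates 1 and 2. These came to 798 and 933 CPM, with a mean of 866 ± 95.8 CPM (SD, n = 2) and rank 92. It lies in an exon of Dnm3os, opposite to an intron of Dnm3, a dynamin gene. Mir323 at 933 ± 41.6 CPM and Mir29a, of a family known to lower collagen mRNAs, at 851 ± 30.4 CPM stood next to it, with overlapping ranges.

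Mir199a-2 (ENSMUSG00000070126.1, chromosome 1 at 162217814 to 162217923) lies 5444 bases upstream of Mir214 in an exon of the same noncoding RNA. It had 102 and 52 counts in replicates 1 and 2, or 18.4 and 16.4 CPM, with a mean of 17.4 ± 1.44 CPM (SD, n = 2). Mir214 was 43.3 times as high in replicate 1 (35.5 to 53.2, exact 95% interval) and 56.9 times in replicate 2 (43.3 to 76.4). Of the 113 adjacent pairs, 22 were further apart. Its own nearest genes in level were Mir3070a at 17.8 ± 2.93 CPM and Mir19b-1 at 17.3 ± 1.91 CPM. As shown above, both mature RNAs of Mir199a-2 are also those of Mir199a-1, while those of Mir214 are its own, so the ratio sets a gene without a listed mature RNA of its own against a gene with 2.

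The other miR-199 genes lie singly, opposite to introns of dynamin genes. Mir199b (ENSMUSG00000092807.1, chromosome 2 at 32318460 to 32318569, opposite to an intron of Dnm1) had 704 and 398 counts in replicates 1 and 2, or 127 and 126 CPM, with a mean of 126 ± 1.25 CPM (SD, n = 2). That SD is smaller than counting error, since counting error alone gave exact 95% intervals of 118 to 137 CPM (replicate 1) and 114 to 139 CPM (replicate 2). It stood between Mir668 at 129 ± 2.22 CPM and Mir128-1 at 124 ± 4.31 CPM, from which its range did not separate it. Mir199a-1 (ENSMUSG00000065547.1, chromosome 9 at 21496495 to 21496564, opposite to an intron of Dnm2) had 8 and 6 counts, or 1.45 and 1.89 CPM.

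The order within the miR-199 family was the same in both libraries. Mir199b exceeded Mir199a-2 6.90 times in replicate 1 (5.60 to 8.58, exact 95% interval) and 7.65 times in replicate 2 (5.72 to 10.4). Mir199b exceeded Mir199a-1 88.0 and 66.3 times, and Mir199a-2 exceeded Mir199a-1 12.8 and 8.67 times. The 3 genes together held 814 and 456 counts in replicates 1 and 2. Reads that map to several places may be missing from these, so the amount of miR-199a and miR-199b in this tissue is not given by these tables. The gene Gm23363, 116 bases from Mir199b on the same strand, had 0 counts in both libraries.

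The order of all 8 genes by level was Mir143, Mir140, Mir214, Mir145a, Mir199b, Mir199a-2, Mir199a-1 and Mir145b. It was the same in both libraries, and for each gene both libraries lay above both libraries of the next. The last step is not settled by depth, since the exact 95% interval of Mir199a-1 began at 0.625 CPM (replicate 1) or 0.695 CPM (replicate 2), near what 0 counts of Mir145b allow. The smallest step was Mir145a over Mir199b, at 1.91 times in replicate 1 and 1.51 times in replicate 2. Between different miRNAs such steps also hold the bias of adapter ligation, which was not measured here.

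The strand of the reads was clear at these loci. On the opposite strand the 8 genes had 1 read in replicate 1, at Mir214, and 0 in replicate 2. That is not particular to them: of the 352 detected genes, 324 (92.0%) had at most 1 opposite read over both libraries. Dnm1, Dnm2 and Dnm3 are transcribed from that opposite strand.

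**Figure D3:**
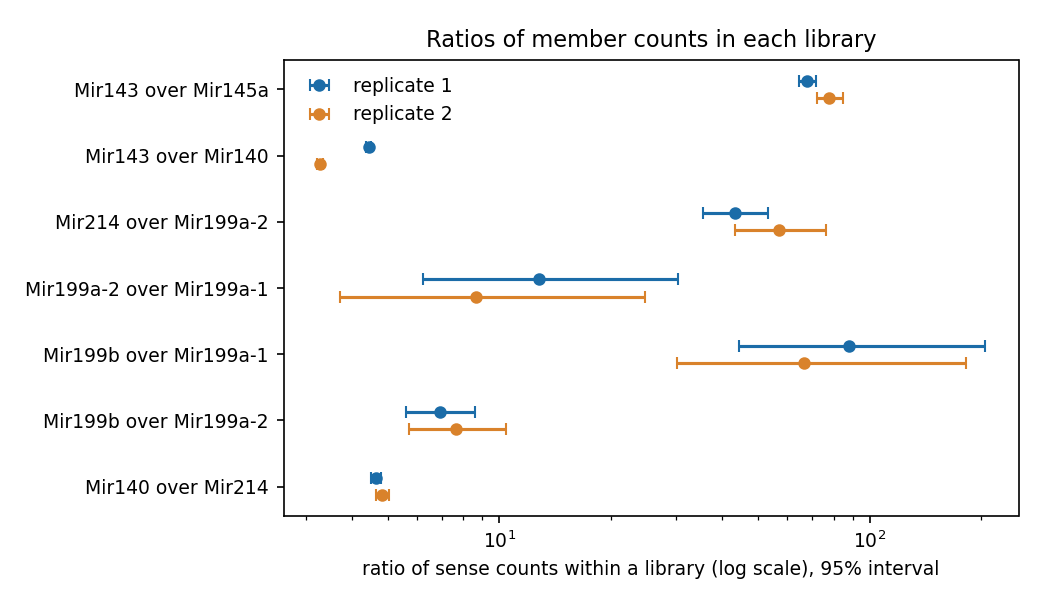
Ratios of sense counts between named genes within each library, on a log axis, with bars for the exact 95% interval of counting error. The Mir143 over Mir140 ratio is 4.44 in replicate 1 and 3.28 in replicate 2 with separate intervals, and the ratios that hold Mir199a-1 have the widest intervals.

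Ratios within a library need no scaling, so they were compared between the libraries by a two-sided Fisher's exact test, with Benjamini-Hochberg adjustment over the 5 pairs in which both genes had at least 10 counts. Of these, 2 differed, also at an unadjusted p under 0.05, against 41.4% of the 61776 pairs of detected genes at that unadjusted threshold. A share of 2 in 5 is near that background. Mir143 over Mir140 was 4.44 in replicate 1 (4.37 to 4.51, exact 95% interval) and 3.28 in replicate 2 (3.22 to 3.34), a ratio of ratios of 1.35 (95% interval 1.32 to 1.39, exact adjusted p = 7.36e-132). Mir143 over Mir145a, the pair of a common precursor, had a ratio of ratios of 0.871 (0.789 to 0.960, exact adjusted p = 0.0129).

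For the other pairs the test did not pass. Mir140 over Mir214 was 4.65 in replicate 1 and 4.83 in replicate 2, with a ratio of ratios of 0.963 (95% interval 0.914 to 1.01, exact adjusted p = 0.185). Mir214 over Mir199a-2, from the same noncoding RNA, had 0.760 (0.532 to 1.08, exact adjusted p = 0.185), an interval that still allows a difference of the size seen between Mir143 and Mir140. Mir199b over Mir199a-2 had 0.902 (0.619 to 1.30, exact adjusted p = 0.592).

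Gene by gene, the libraries were compared on TMM-scaled sizes with a two-sided exact binomial test of counting error, adjusted over all 456 genes with at least 10 counts in sum. This compares 2 libraries of 1 group and not conditions. Of the 7 genes tested, 4 differed, against 38.6% of all genes tested. Abundant genes passed more often: of 187 genes whose mean reached 100 CPM 61.0% did, and of the 5 such members 4 did. The 4 were split, 2 higher in replicate 1, against 18.9% of all genes tested, and 2 lower, against 19.7%. The median log2 ratio of the 7 was 0.03, against 0.02 for all genes tested.

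Mir143 and Mir145a, neighbours at 1 locus, were higher in replicate 1, with log2 ratios of replicate 1 over replicate 2 of 0.17 (95% interval 0.15 to 0.19, exact adjusted p = 1.98e-94) and 0.37 (0.23 to 0.51, exact adjusted p = 7.71e-07). The epithelial list was higher in replicate 1 too, for 5 of 5 genes (median log2 ratio 0.33), as was the hepatocyte list for 4 of 4 (0.14). Of the erythroid list, 1 gene was higher and 2 were lower (median -0.18). The endothelial and leukocyte lists had 1 gene tested each, and both were higher (0.05 and 0.11). The leukocyte value is of Mir223 alone, as Mir142, the other listed gene, has no entry. The opposite strand of Mir142b held 193651 reads in replicate 1 and 131496 in replicate 2, while depth differed 1.74 times. These reads entered no sense count, so the leukocyte direction rests on 1 gene. Of all genes tested, 18.9% were higher and 19.7% lower in replicate 1. The part of these lists in the differences of Mir143 and Mir145a was not tested. Mir140 and Mir214 were lower in replicate 1, at -0.27 (-0.30 to -0.24, exact adjusted p = 1.87e-62) and -0.21 (-0.28 to -0.14, exact adjusted p = 5.38e-09). The differences of these 4 members were all modest in size, between 1.12-fold for Mir143 and 1.29-fold for Mir145a. The SD of log2 ratios among genes with at least 100 CPM was 0.203. Mir143 lay within that SD, Mir214 and Mir140 at 1.05 and 1.32 times it, and Mir145a at 1.82 times, with 7 of the 187 genes further apart. Mir199b at 0.03 (-0.15 to 0.22), Mir199a-2 at 0.18 (-0.31 to 0.69) and Mir199a-1 at -0.37 (-2.09 to 1.43) did not pass, and for Mir199a-1 the interval covers a 2-fold difference in either direction.

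**Figure D4:**
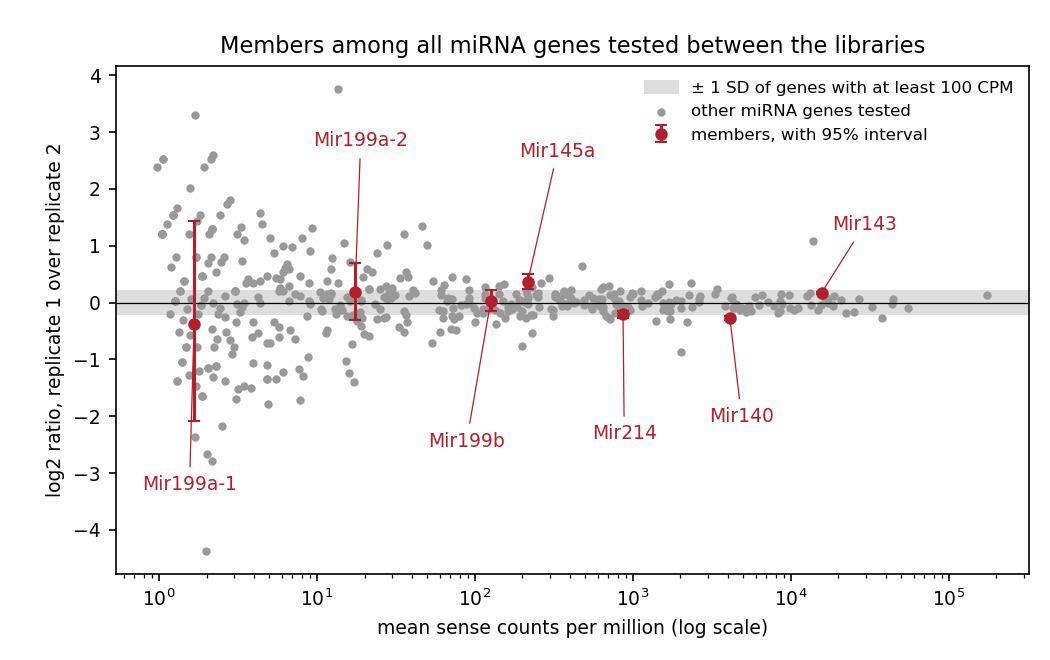
Log2 ratio of replicate 1 over replicate 2 against mean sense CPM, on a log axis, for the 456 miRNA genes tested, with the 7 members in red and bars for the 95% interval of counting error. The 5 members above 100 CPM lie between -0.27 and 0.37, and the grey band is 1 SD, 0.203, of the genes with at least 100 CPM.

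Other miRNAs linked to mesenchyme, fibroblasts or stellate cells gave a wide range of levels. Of 20 listed, 19 are in the tables and 17 were detected. The median level of the 17 was 406 CPM, against 135 CPM for all 352 detected genes, and their share was 7.37% in replicate 1 and 8.13% in replicate 2. The highest were Mir335, in the imprinted gene Mest, at 37680 ± 5355 CPM, Mir21a, known from activated stellate cells, at 20891 ± 330 CPM, and Mir22 at 13468 ± 434 CPM (SD, n = 2 each). Only Mir335 and Mir21a of that list were above Mir143. Of 18 tested by the exact binomial test, 3 were higher and 4 lower in replicate 1, so that 7 of 18 differed, against 38.6% of all genes tested, with a median log2 ratio of -0.04, against 0.02 for all genes tested. Mir335 at -0.28 and Mir455 at -0.29 were lower in replicate 1 by amounts close to that of Mir140. The other lower genes were Mir22 at -0.05 and Mir29b-1 at -0.95. The 3 higher genes were Mir21a at 0.05, Mir27b at 0.20 and Mir100 at 0.20.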

How the data were processed

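The authors deposited for each library a table of raw counts, whole numbers of reads assigned to each miRNA gene, with no normalization, counted on mm10 (GRCm38) with annotation release M4, per the text deposited beside the tables. The sources used here do not name the aligner or counter. Each table has counts for both strands, the gene's strand and the opposite strand. Reads mapping to several places (29.3% of 14666947 reads in replicate 1 and 31.1% of 8454226 in replicate 2), unmapped reads (23.9% and 21.4%) and reads in no gene (5.40% and 6.23%) stand apart and entered no library size or test. Ambiguous reads were 0.

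Genes were named from release M21 on the same assembly. Of 1973 identifiers, 1894 matched by their stable part. Mir143 and Mir145a carry another version number there, so their positions may differ from those counted. Sequences are from RefSeq, GRCm38.p6. CPM divides by sense miRNA counts. TMM scaling used edgeR 4.0.16 in R 4.3.3, with DESeq2 1.42.0 size factors as an alternative. Binomial tests ran in R and were tested on simulated data. Fisher tests and Clopper-Pearson intervals used SciPy 1.17.1, and figures matplotlib 3.10.9. The threshold was an adjusted p of 0.05. P-values measure counting error between these 2 libraries. The genes named are the members, the detected members' nearest genes in mean CPM, miRNA genes within 10 kb and cell type markers. Also named are the 3 highest of the mesenchyme list, its genes that differed, and genes with a shared seed or standing out. The members and lists were chosen with earlier results of these data known. The hepatocyte list held 18.7% and 17.3% of sense counts in replicates 1 and 2, and the epithelial list 0.405% and 0.327%. The erythroid list held 2.71% and 1.86%, the leukocyte list (Mir223 alone) 1.95% and 1.82%, and the endothelial list (Mir126a alone) 4.48% and 4.36%.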

Additional observations from a re-analysis of the deposited data

How the results depend on the processing

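The summed share of the 8 genes, 2.10%, was 1.91% with counts of both strands and 2.54% with Mir122 left out of the denominator, and 2.06% to 2.14% with either library left out. Of 85 values recomputed, 71 kept their direction and side of the threshold or moved by less than the spread between replicates. With 2 libraries, leaving 1 out always moves a mean by less than the SD, so those values could not count as moved. Ratios of members with both strands could hardly change either, as the members had 1 opposite read in replicate 1 and 0 in replicate 2. The other 14 are the 2 alternative shares above and 12 single-gene levels, all under another denominator. Total-count scaling, DESeq2 size factors, counts of both strands and a minimum of 1 count each left 4 genes different between the libraries, with no sign turned. No paired analysis was possible because there is 1 group. Depth limits Mir199a-2, Mir199a-1 and Mir145b. Reads mapping to several places may be missing from the counts of the miR-199 genes, which was not tested.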
